A study of Mus musculus with 11 samples.

Results

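The forkhead P genes (Foxp1 to Foxp4) and the early B-cell factor genes (Ebf1 to Ebf4) are a pair of small families of DNA-binding transcription factors. Their 8 members were found by gene symbol among the 54752 genes counted in each library and are described here across sensory nuclei of the newborn thalamus. The families were picked with differences between these same libraries already known, so the differences of the members between nuclei are given as a description, without p-values.

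The study measured RNA in neurons of the dorsolateral geniculate nucleus (dLG, the visual relay), the ventral posteromedial nucleus (VPM, the relay of facial touch) and the ventral medial geniculate nucleus (MGv, the auditory relay). There were 4 dLG, 4 VPM and 3 MGv libraries, and each came from 4 pooled brains of ICR/CD-1 mice at postnatal day 0. All groups carried the same genotype, Gbx2CreER-IRES-EGFP/+::R26lsl-tdTomato/+. In this line early postmitotic thalamic neurons express a tamoxifen-inducible Cre recombinase from the Gbx2 locus, which turns on tdTomato, a red fluorescent protein, and cells were sorted by fluorescence after the nuclei had been cut out. A library is thus a pool of sorted cells within reach of that promoter, and the groups were set apart by which nucleus was dissected. The labels do not say whether libraries of different nuclei came from the same brains, so the spread between libraries is the only error available and part of it may be technical.

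Total counts were between 10175653 and 23559130 per library and were lowest in MGv, at no more than 13164909. Levels are CPM, a gene's count relative to the total of its library (per 1000000 counts), with totals adjusted by edgeR's TMM scaling, and the floor of 3 counts corresponded to 0.129 to 0.292 CPM, counting error only. All 9 neuronal and all 9 thalamic relay markers were above 1 CPM on average in each nucleus. A list of 9 genes of inhibitory neurons summed to 2.19 to 4.30 CPM in dLG, 4.33 to 21.3 in VPM and 3.08 to 8.94 in MGv. Of these, Slc32a1, which loads inhibitory transmitter into vesicles, did not exceed 0.0463 CPM in any library. Sst was at 3.33 to 11.9 CPM in VPM and at most 4.76 CPM elsewhere, and Npy and Gad1 reached up to 7.62 and 2.72 CPM. A trio of libraries stood apart: in dLG replicate 2, Hspa8, a constitutive heat shock protein, was at 3.05 CPM, in VPM replicate 3 at 4.09 and in MGv replicate 1 at 5.56, and it was between 159 and 581 CPM in the others. Apart from the trio, dLG replicate 3 held blood RNA: 5 blood genes summed to 514 CPM in it, with Hbb-bs at 347 and Hba-a1 at 118, against at most 11.7 CPM in any other library. Results that rest on the trio or on this library are given with and without them.

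Foxp proteins bind DNA through a forkhead domain, pair with each other through a leucine zipper and mostly repress transcription, in part through the CtBP corepressors and the NuRD histone deacetylase complex. Foxp2 is best known from inherited speech disorders and is a familiar marker of developing thalamus, cortical layer VI and striatum, whereas Foxp3 directs regulatory T cells. Ebf proteins bind DNA as dimers through an unusual zinc-containing domain followed by a helix-loop-helix. Ebf1 commits precursors to the B-cell fate, and in the nervous system Ebf genes act downstream of proneural factors in neuronal differentiation and migration.

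The 8 genes lie on 7 chromosomes (GRCm38, all protein coding). Foxp1 occupies chr6:98925338-99522721 on the minus strand, Foxp2 chr6:14901349-15441977 on the plus strand, Foxp3 chrX:7573644-7595245 (plus) and Foxp4 chr17:47867133-47924645 (minus). Ebf1 is at chr11:44617317-45008091 (plus), Ebf2 at chr14:67233292-67430918 (plus), Ebf3 at chr7:137193673-137314445 (minus) and Ebf4 at chr2:130295169-130370481 (plus). Their merged exons ran from 3236 bases in Ebf4 to 16346 in Foxp2, which is why levels are compared between genes only per kilobase of exon.

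RefSeq promoter windows (GRCm38.p6, 250 bases before to 50 after a start site) were found for 6 members, with 10 windows in all, and were searched on both strands for sequences these families bind. The forkhead sequence TGTTTAC and the Foxp element TATTTAT were in none of the 10 windows, against 3.65% and 5.60% of the 32851 mouse promoter windows of the same length. The Ebf core CCCNNGGG, which reads the same on both strands, was in 2 of the 10, against 13.7% of all windows. The matches are shown because both fall in a family member's own promoter, as 30-base stretches with the core in capitals, read 5′ to 3′ on the gene's strand. They are matches of letters only, and binding was not measured.
Foxp1, chr6:99521089-99521118, minus strand, core 114 bases before the start: gcagctcccgcCCCCTGGGagcctaaggac
Ebf3, chr7:137314448-137314477, minus strand, core 21 bases before the start: acagcgccgctCCCGGGGGcttcgagtttt

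**Figure D1:**
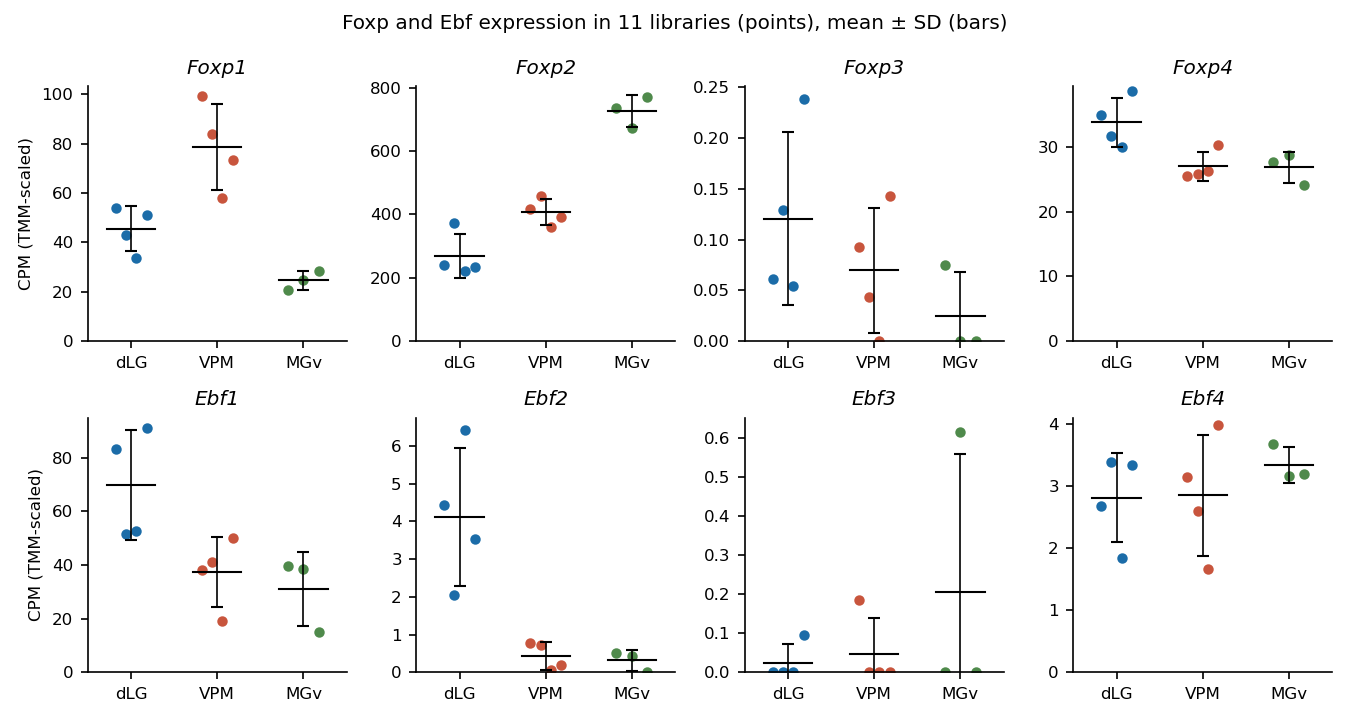
CPM (linear axes from 0, TMM-scaled) of each Foxp and Ebf gene in the 4 dLG (blue), 4 VPM (red) and 3 MGv (green) libraries; points are libraries, horizontal lines means and bars the SD. Foxp1 was highest in VPM, Foxp2 was highest in MGv, and Ebf1 and Ebf2 were highest in dLG, while Foxp3 and Ebf3 stayed below 1 CPM in all 11 libraries.

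Of the 8 genes, 6 had enough counts to be fitted (Foxp1, Foxp2, Foxp4, Ebf1, Ebf2 and Ebf4). Between dLG and VPM 3 of them passed an adjusted p of 0.1 (Foxp1, Foxp2 and Ebf2), beside 10.7% of all 15907 genes tested. For dLG against MGv 4 passed (Foxp1, Foxp2, Ebf1 and Ebf2), beside 16.1%, and for VPM against MGv 2 passed (Foxp1 and Foxp2), beside 19.0%. Library ranges did not overlap for 3 members between dLG and VPM (Foxp1, Ebf1 and Ebf2), beside 14.6% of genes, for 5 between dLG and MGv (all but Ebf4), beside 23.8%, and for 2 between VPM and MGv (Foxp1 and Foxp2), beside 25.1%. Since the members were picked from these contrasts, nothing is read from these counts. Where a member is said below to pass, gain or lose a call, this describes the fit and is not independent evidence of a difference. Because whole pools of cells were measured, fewer expressing cells and less RNA per cell cannot be told apart in any of these values.

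Foxp2 was the most abundant member per kilobase of exon in all 3 nuclei and rose in steps from dLG to VPM to MGv. The dLG libraries had 241, 372, 223 and 235 CPM, the VPM libraries 418, 457, 362 and 393 CPM and the MGv libraries 737, 674 and 772 CPM. All MGv libraries were above all others, whereas dLG and VPM overlapped through dLG replicate 2 alone, which lay above VPM replicate 3. The mean was 268 ± 69.8 CPM for dLG (SD, n = 4), 408 ± 40.4 for VPM (SD, n = 4) and 728 ± 49.6 for MGv (SD, n = 3). MGv exceeded dLG 2.72-fold (log2 fold change, dLG minus MGv, -1.44 ± 0.17 SE) and VPM 1.79-fold (VPM minus MGv, -0.84 ± 0.17 SE). VPM exceeded dLG 1.52-fold (dLG minus VPM, -0.61 ± 0.16 SE), a difference that no longer passed without dLG replicate 4 (-0.55) or without VPM replicate 2 (-0.55). Without the trio this difference was -0.86 and the one between dLG and MGv -1.64. Foxp2 was lowest in dLG replicate 3, the library with blood RNA, and without it the differences were -0.53 and -1.36.

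Several other measures were highest in MGv, as Foxp2 was, but not all of them rose from dLG to VPM. Gbx2, the locus that drives the Cre recombinase behind the sort, was at 272 to 333 CPM in MGv and at 14.2 to 51.6 CPM in dLG and VPM, with dLG replicate 2 the highest of these. Tcf7l2, a transcription factor of thalamic neurons, was at 696 CPM in dLG replicate 2 against 382 to 406 CPM in the other dLG libraries. It was at 468 to 563 CPM in VPM and at 1072 to 1286 CPM in MGv. The summed CPM of 7 oligodendrocyte markers was 13.1 to 30.5 in dLG, 33.7 to 43.9 in VPM and 74.9 to 86.5 in MGv. Its main part was Mbp, a myelin gene that neurons also transcribe, at 62.4 to 71.5 CPM in MGv. The defining lineage factors Olig2 and Sox10 were at 0 in every MGv library and did not exceed 0.389 and 0.0476 CPM elsewhere. Slc1a3, a glutamate transporter of astrocytes and progenitors, was at 45.5 to 90.3 CPM in MGv and at most 17.9 CPM elsewhere, in dLG replicate 2. The whole list of 7 astrocyte genes overlapped between the nuclei (57.0 to 140 CPM in dLG, 86.8 to 151 in VPM and 76.2 to 192 in MGv). Of its other genes, Fabp7 and Aldoc had counts in every library. Fabp7 reached 122 CPM in dLG replicate 3 and Aldoc 46.6 CPM in VPM replicate 3. Aldh1l1, Aqp4, Gja1 and Gfap did not exceed 5.18, 1.58, 1.43 and 0.0865 CPM in any library. The part of any of these in the Foxp2 difference was not tested.

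Foxp1, which in brain is known from striatum and cortex and in blood from B-cell development, followed another order: VPM above dLG above MGv. It was at 99.5, 83.7, 58.1 and 73.5 CPM in the VPM libraries, at 53.9, 43.0, 33.8 and 51.3 CPM in dLG and at 20.7, 24.8 and 28.3 CPM in MGv. No library of a nucleus overlapped with another nucleus, although VPM replicate 3, at 58.1, was only just above dLG replicate 1, at 53.9. It averaged 78.7 ± 17.4 CPM over the VPM libraries (SD, n = 4), 45.5 ± 9.05 over dLG (SD, n = 4) and 24.6 ± 3.78 over MGv (SD, n = 3). VPM was 3.20-fold above MGv (log2 fold change 1.68 ± 0.22 SE) and 1.73-fold above dLG (dLG minus VPM, -0.79 ± 0.19 SE), and dLG was 1.85-fold above MGv (0.89 ± 0.21 SE). MGv was also the shallowest group. With all libraries thinned to the smallest total, 10175653 counts, the differences were -0.81 (dLG minus VPM), 0.88 (dLG minus MGv) and 1.69 (VPM minus MGv). Foxp1 was lowest among the dLG libraries in replicate 3, the one with blood RNA, and without it dLG differed by -0.67 from VPM and by 1.01 from MGv. Of the exonic bases of Foxp1, 2.18% lie also in Gm20696 on the same strand.

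Foxp4, the least studied of the brain members, was nearly level. Its dLG libraries had 34.9, 31.8, 30.1 and 38.7 CPM, its VPM libraries 25.6, 25.9, 26.3 and 30.3 CPM and its MGv libraries 27.7, 28.7 and 24.1 CPM. The dLG libraries were all above those of MGv and overlapped with VPM only through VPM replicate 4 and dLG replicate 3. None of the contrasts passed: dLG was 0.32 ± 0.14 (SE) above VPM and 0.33 ± 0.15 above MGv on the log2 scale, and VPM and MGv differed by 0.01 ± 0.15. Foxp4 in VPM and MGv therefore did not differ beyond the spread, at 27.0 ± 2.23 (SD, n = 4) and 26.8 ± 2.42 CPM (SD, n = 3).

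Foxp3 was at 0 to 5 counts per library, with 10 counts over the dLG libraries, 6 over VPM and 1 over MGv. It was too low to be tested. Overlapping genes share bases with its exons, among them Flicr with 18.6% and Ccdc22 with 12.9%, so that even these few reads cannot be assigned with certainty. A list of 6 genes of lymphocytes, the cells in which Foxp3 and Ebf1 have their best known roles, summed to at most 0.601 CPM in any library.

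**Figure D2:**
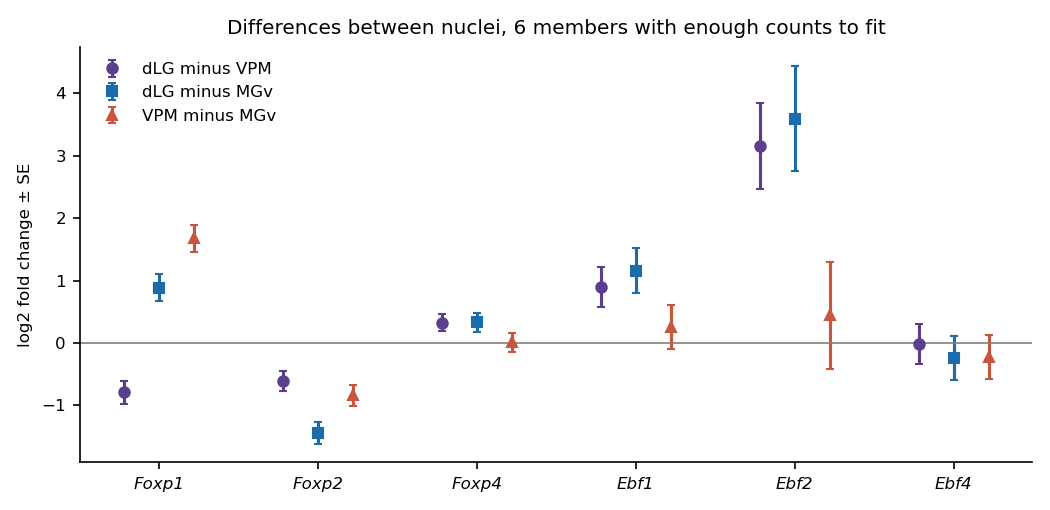
Log2 fold changes between nuclei (vertical axis, bars ± SE from the edgeR fit) of the 6 members that could be fitted; circles are dLG minus VPM, squares dLG minus MGv and triangles VPM minus MGv. Foxp1 differed in all 3 contrasts, Foxp2 was lowest in dLG, Ebf2 had the largest values (3.15 ± 0.69 and 3.60 ± 0.84) with the widest errors, and Ebf4 stayed within 1 SE of 0.

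Among the Ebf genes, Ebf1 was the most abundant per kilobase of exon in each nucleus and highest in dLG. It was at 83.2, 51.6, 52.8 and 91.2 CPM in the dLG libraries, at 38.3, 41.3, 19.2 and 50.3 CPM in VPM and at 39.6, 38.7 and 15.1 CPM in MGv. The lowest dLG library, replicate 2 of the trio at 51.6 CPM, was only just above the highest VPM library at 50.3, and VPM and MGv overlapped. Means were 69.7 ± 20.5 CPM (SD, n = 4), 37.3 ± 13.1 (SD, n = 4) and 31.1 ± 13.9 (SD, n = 3). On the log2 scale dLG was 1.16 ± 0.36 (SE) above MGv, which passed, and 0.90 ± 0.32 above VPM, which did not. VPM was 0.26 ± 0.35 above MGv. The call against MGv was lost without dLG replicate 1 (1.07), without dLG replicate 4 (1.00) or without MGv replicate 3 (0.83), in which Ebf1 was lowest. The difference from VPM did pass without dLG replicate 2 (1.00), without VPM replicate 4 (1.07) or without MGv replicate 3 (0.89), and also with DESeq2 (0.89). Without the trio it was 0.81, and the one between dLG and MGv was 1.48.

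Ebf2, known from neuronal migration and from brown fat, was low everywhere and detected well only in dLG. The dLG libraries had 4.44, 2.06, 6.43 and 3.53 CPM, from 73, 48, 118 and 74 counts. The VPM libraries had 0.788, 0.736, 0.0620 and 0.190 CPM, from 17, 17, 1 and 4 counts, and the MGv libraries 0.526, 0.439 and 0 CPM, from 7, 5 and 0 counts. All dLG libraries were above all others, while VPM and MGv overlapped. The dLG mean was 4.12 ± 1.83 CPM (SD, n = 4), 8.90-fold above VPM (log2 fold change 3.15 ± 0.69 SE) and 12.1-fold above MGv (3.60 ± 0.84 SE). Outside dLG the gene had at most 17 counts in a library, so the size of both differences rests on few reads there. The difference of Ebf2 between dLG and MGv ranged from 3.06 without MGv replicate 3 to 4.35 without the trio. It was 3.82 without dLG replicate 2 alone, and the MGv libraries held at most 7 counts each. The highest value was in dLG replicate 3, the library with blood RNA, and without it the differences of Ebf2 were 2.86 against VPM and 3.30 against MGv. The exons of Ebf2 share 6.12% of their bases with the antisense gene Gm10860, and whether counting used strand is not stated.

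Ebf3, a factor of neuronal differentiation, had no count in 8 of 11 libraries and 2 counts in dLG replicate 4, 4 in VPM replicate 1 and 7 in MGv replicate 2. Ebf4 was at 1.67 to 3.99 CPM and did not order the nuclei. Its libraries had 2.68, 3.39, 1.85 and 3.34 CPM in dLG, 3.15, 2.60, 1.67 and 3.99 CPM in VPM and 3.68, 3.16 and 3.21 CPM in MGv, so that all 3 ranges overlapped. The log2 differences of Ebf4 were -0.02 ± 0.32 (dLG minus VPM), -0.25 ± 0.35 (dLG minus MGv) and -0.23 ± 0.35 (VPM minus MGv, all SE). With 27 to 84 counts per library, differences in Ebf4 of the size of these errors, or somewhat larger, were not detectable.

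Marker genes of other cells in which Ebf genes are well known were mixed. The summed CPM of 6 pericyte genes was 3.98 to 5.80 in dLG, 3.14 to 5.89 in VPM and 1.84 to 3.21 in MGv. The 6 Cajal-Retzius genes summed to 89.1 to 117 CPM in dLG, 46.3 to 73.9 in VPM and 48.3 to 57.7 in MGv, and the 6 habenula genes to 99.5 to 153, 63.9 to 97.2 and 76.8 to 88.5 CPM, so both were highest in dLG, as Ebf1 and Ebf2 were. Nhlh2, on both lists, was the largest part, at 81.1 to 109 CPM in dLG, 42.7 to 69.4 in VPM and 39.3 to 50.1 in MGv. The habenula gene Chrna3, a nicotinic receptor subunit, was at 14.9 to 40.4 CPM in dLG, 10.5 to 23.7 in VPM and 6.91 to 17.2 in MGv, whereas Gng8 was highest in MGv, at 11.7 to 34.3 CPM. The Cajal-Retzius gene Ndnf was at 6.10 to 9.98 CPM in dLG, 2.64 to 3.00 in VPM and 1.76 to 7.29 in MGv. The defining genes Reln, Trp73 and Lhx5 did not exceed 2.19, 0.436 and 0.301 CPM, and those of habenula, Pou4f1 and Tac2, did not exceed 0.816 and 0.0751 CPM. A list of 6 progenitor genes was highest in dLG, as Ebf1 and Ebf2 were, summing to 150 to 186 CPM in dLG, 78.2 to 88.3 in VPM and 90.7 to 115 in MGv. Its sum was higher in MGv than in VPM, while Ebf1 and Ebf2 each overlapped between VPM and MGv. Sox2 carried the sum, at 143 to 179 CPM in dLG and at most 101 CPM elsewhere. Nes went the other way, at 2.67 to 4.38 CPM in dLG, 3.35 to 5.93 in VPM and 8.51 to 10.1 in MGv. Mki67, a gene of dividing cells, did not exceed 0.902 CPM in any library. The part of these lists in the Ebf differences was not tested.

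Per kilobase of exon, the nuclei differed in the make-up of each family. Of the summed Foxp level, Foxp2 gave 61.1 ± 6.67% for dLG (SD, n = 4), 69.0 ± 1.85% for VPM (SD, n = 4) and 86.0 ± 1.43% for MGv (SD, n = 3). Foxp4 gave 26.3 ± 4.42%, 15.3 ± 2.07% and 10.6 ± 1.45%, and Foxp1 12.6 ± 2.62%, 15.7 ± 2.39% and 3.46 ± 0.500%. The ratio of Foxp2 to Foxp1 was between 3.54 and 7.27 in the dLG and VPM libraries and between 22.8 and 29.9 in MGv. In this ratio dLG and VPM did not differ beyond their spread (5.11 ± 1.66 and 4.47 ± 0.703), although both genes were higher in VPM. The summed Foxp level rose from 26.6 ± 4.22 CPM per kb in dLG to 36.2 ± 3.36 in VPM and 51.8 ± 2.68 in MGv, with an overlap between dLG and VPM only.

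Ebf1 gave 82.3 ± 3.82% of the summed Ebf level in dLG, 79.9 ± 1.89% in VPM and 72.0 ± 9.65% in MGv (SD). The share of Ebf2 was 4.49 to 13.4% in the dLG libraries and at most 2.26% in the others. Ebf4 took 8.28 to 15.8% in dLG, 15.6 to 20.7% in VPM and 19.2 to 39.1% in MGv, while its own level did not separate the nuclei. The summed Ebf level was 8.61 ± 2.16 CPM per kb in dLG, 4.77 ± 1.64 in VPM and 4.29 ± 1.53 in MGv, so all Ebf genes together were below the Foxp genes in every nucleus. Within dLG the per-kilobase levels ran from Foxp2 (16.4 CPM per kb) to Ebf1 (7.14 ± 2.10) and Foxp4 (6.87 ± 0.771), which did not differ beyond their spread, then Foxp1 (3.31), Ebf4 (0.870 ± 0.223) and Ebf2 (0.594 ± 0.264), of which the last pair overlapped. In VPM Foxp1 (5.72 ± 1.27) and Foxp4 (5.49 ± 0.453) followed Foxp2 (24.9), also within their spread of each other, and then came Ebf1 (3.82), Ebf4 (0.882) and Ebf2 (0.0641). In MGv the order was Foxp2 (44.5), Foxp4 (5.45), Ebf1 (3.19), Foxp1 (1.79), Ebf4 (1.04) and Ebf2 (0.0464), where Ebf1 (1.54 to 4.06) and Foxp1 (1.51 to 2.06) overlapped.

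**Figure D3:**
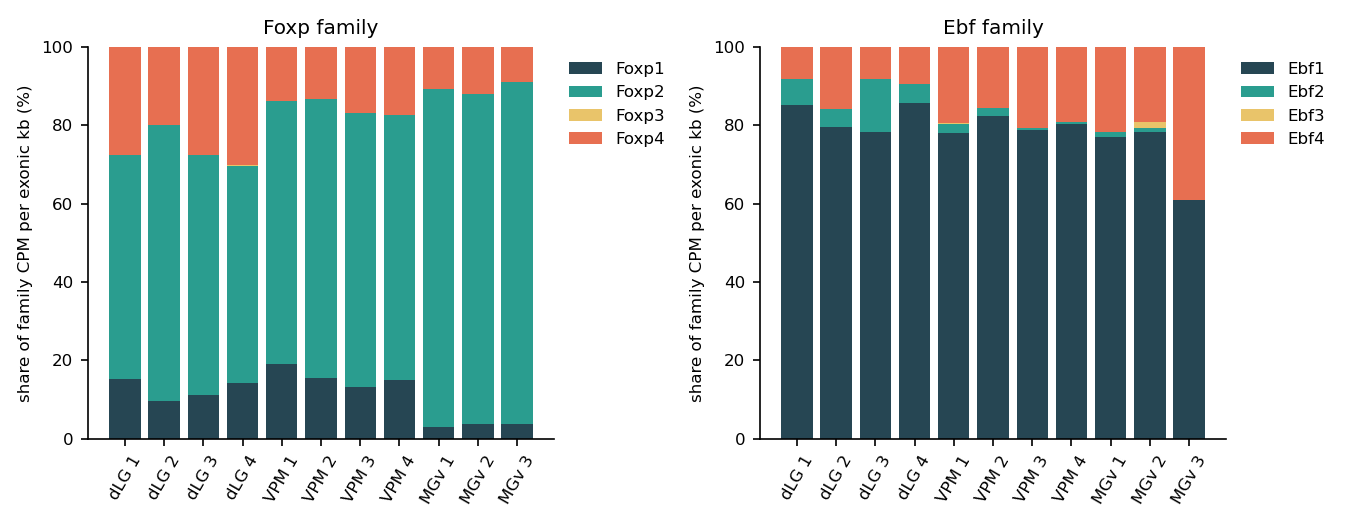
Share of each member in the summed CPM per exonic kilobase of its family (vertical axis, percent) in each of the 11 libraries; stacked bars add up to 100%. Foxp2 took 84.4 to 87.2% of the Foxp level in MGv and 55.3 to 71.1% elsewhere, and Ebf2 was visible mainly in dLG.

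For each member above 1 CPM, the 5 protein-coding genes with the most similar log2 CPM over the 11 libraries were listed out of 10498 (for Ebf2 and Ebf4, 10499) genes. The libraries share nucleus, depth and dissection, so these correlations are descriptions. For Foxp1 the most similar gene was Cdh7, a cadherin (r = 0.977), at 25.1, 54.6 and 8.53 CPM in dLG, VPM and MGv, followed by Sorl1, Cntn1, Stxbp6 and Apbb2. For Foxp2 it was Gpd2, a mitochondrial dehydrogenase (r = 0.984), followed by Tox2, Tenm1, Phf24 and Sphkap. Tenm1, a teneurin of synapse formation, rose from 85.7 to 172 and 494 CPM, and Sphkap from 25.2 to 41.5 and 297 CPM. For Foxp4 the list was Cutal (r = 0.936), P2rx2, Nr1d1, Arsa and Col5a1. For Ebf1 it was Grik3, a kainate receptor subunit (r = 0.943), at 56.1, 38.9 and 39.9 CPM, then Slc22a23, Cib1, Slc10a7 and Usp8. For Ebf2 it was Fbn2, a fibrillin (r = 0.967), then Nhlh2, Slc5a7, Hs3st1 and Mpp5. Of these, Slc5a7, the choline transporter, was at 6.42, 2.69 and 1.95 CPM and Hs3st1, a heparan sulfate sulfotransferase, at 356, 166 and 193 CPM. For Ebf4 it was Kidins220 (r = 0.963), Sall2, Lrp1, Reps1 and 4931406P16Rik, and Kidins220 was at 354, 354 and 392 CPM.

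Genes that work with these families were taken as 6 lists of 97 genes in all, none of them a member, and 50 had enough counts to be tested. By edgeR's quasi-likelihood test 10 passed between dLG and VPM (20% of those tested, beside 10.7% of all genes), 21 between dLG and MGv (42%, beside 16.1%) and 17 between VPM and MGv (34%, beside 19.0%). The lists were drawn up with earlier results of these data known, so these shares are not independent evidence.

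The Foxp partners, 24 genes that bind Foxp proteins or belong to their corepressor complexes, held the largest differences. Of 22 tested, 5 passed between dLG and VPM (1 higher in dLG, 4 in VPM), 7 between dLG and MGv (5 higher in dLG, 2 in MGv) and 6 between VPM and MGv (all higher in VPM). The median log2 fold changes of the list were -0.07, 0.06 and 0.10, against 0.00, 0.02 and 0.02 over all genes. Sox5, an SRY-box factor of corticothalamic neurons, was at 137 to 163 CPM in dLG, 51.5 to 78.6 in VPM and 0.902 to 1.94 in MGv. It differed by 1.24 ± 0.16 on the log2 scale between dLG and VPM (SE, adjusted p = 0.00034), by 6.77 ± 0.26 between dLG and MGv (adjusted p = 5.26e-09) and by 5.53 ± 0.25 between VPM and MGv (adjusted p = 5.11e-08). Its exons share 9.25% of their bases with the antisense gene Sox5os1.

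The COUP-TF nuclear receptors, which bind Foxp proteins, split between the nuclei. Nr2f2 was at 0.218 to 1.85 CPM in dLG, 21.6 to 42.1 in VPM and 17.6 to 34.4 in MGv. It was lower in dLG than in VPM (log2 fold change -5.16 ± 0.47 SE, adjusted p = 1.72e-05) and than in MGv (-4.64 ± 0.48 SE, adjusted p = 3.02e-05). An overlapping processed transcript on the other strand shares 7.46% of its exonic bases. Nr2f1 was highest in VPM (268 to 367 CPM), intermediate in dLG (192 to 226 CPM) and lowest in MGv (82.9 to 86.6 CPM), in the same order as Foxp1. VPM exceeded MGv by 1.82 ± 0.14 on the log2 scale (SE, adjusted p = 2.85e-06), dLG exceeded MGv by 1.34 ± 0.14 (adjusted p = 3.02e-05), and dLG was 0.48 below VPM (-0.48 ± 0.12, adjusted p = 0.031).

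Corepressor subunits differed less. Hdac2, a histone deacetylase of the NuRD complex, was lower in dLG than in VPM (-0.65 ± 0.20 SE, adjusted p = 0.0624), a call lost with total counts in place of TMM and without any 1 of dLG replicates 1, 2 and 3 or VPM replicates 1, 2 and 4 (adjusted p from 0.00138 to 0.175 over the alternatives). Mbd3 of the same complex, singled out after its values were seen, was lower in dLG than in MGv (-0.76 ± 0.13 SE, adjusted p = 0.00162). Ctbp1, the main CtBP corepressor here, averaged 85.8 ± 33.6 CPM over dLG (SD, n = 4), 93.0 ± 25.7 over VPM (SD, n = 4) and 104 ± 30.8 over MGv (SD, n = 3), and its contrasts had adjusted p of 0.644 to 0.879. Ctbp2 stayed below 1 CPM on average in each nucleus. Satb1, a chromatin organizer, was higher in dLG than in MGv (1.57 ± 0.37 SE, adjusted p = 0.0116). Tbr1, a T-box factor of cortical projection neurons, was higher in VPM than in MGv (2.83 ± 0.73 SE, adjusted p = 0.0206) at a mean of 1.80 CPM, and its difference between dLG and MGv (2.46 ± 0.73 SE, adjusted p = 0.0425) was lost without MGv replicate 2 (adjusted p 0.00626 to 0.124 over the alternatives).

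Of 9 genes known as Foxp targets, 5 were tested. Between dLG and VPM 0 passed with edgeR (1 had an unadjusted p under 0.05, and DESeq2 called 1, Srpx2), and 2 passed in each of the contrasts with MGv, Mef2c and Srpx2. Cntnap2, a neurexin-family adhesion gene repressed by Foxp2 in other systems, averaged 185 ± 21.4 CPM over dLG (SD, n = 4), 186 ± 12.8 over VPM (SD, n = 4) and 214 ± 13.8 over MGv (SD, n = 3). Its contrasts had adjusted p of 0.318 to 0.991. Any link between the level of Foxp2 and that of these target genes was not tested. Mef2c, an activity-regulated factor that Foxp2 represses in striatum, was lower in MGv (38.5 to 74.8 CPM) than in dLG (97.5 to 133 CPM) and VPM (120 to 155 CPM), by 1.23 ± 0.22 (adjusted p = 0.00216) and 1.49 ± 0.22 (SE, adjusted p = 0.000575) on the log2 scale. Srpx2, a secreted synaptic protein, was at 3.38 ± 1.04 CPM in VPM and 0.342 ± 0.319 in MGv (log2 fold change 3.27 ± 0.59 SE, adjusted p = 0.00252). Its difference between dLG and MGv (2.11 ± 0.59 SE, adjusted p = 0.0311) was lost without MGv replicate 1, without MGv replicate 3 or without the trio (adjusted p 0.00651 to 0.114 over the alternatives), and that between dLG and VPM did not pass (-1.16 ± 0.44 SE, adjusted p = 0.149).

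Of the other 40 forkhead genes, 11 could be tested, and 1, 3 and 3 passed in the contrasts of dLG with VPM, dLG with MGv and VPM with MGv. Foxo1, an insulin-regulated factor that is also an Ebf1 target in B cells, was listed at 0.163 to 0.644 CPM in dLG, 0 to 0.881 in VPM and 1.67 to 6.61 in MGv. It was higher in MGv than in either of the others (log2 fold change -3.28 ± 0.80 SE for dLG minus MGv and -3.29 ± 0.80 SE for VPM minus MGv, adjusted p = 0.0151 for each), and both calls held under all alternatives. Foxo1 had enough counts to be tested only through MGv, where it was high, so its calls are not independent evidence of a difference. The antisense gene Gm20402 shares 7.78% of its exonic bases. Foxo6 was higher in MGv than in dLG (-2.22 ± 0.59 SE, adjusted p = 0.0249), a call lost without MGv replicate 1 (adjusted p 0.00423 to 0.114 over the alternatives). Foxn3 was higher in MGv than in dLG (-0.59 ± 0.18 SE, adjusted p = 0.0510), a call lost with total counts and without dLG replicate 3, MGv replicate 2 or MGv replicate 3 (adjusted p 0.00553 to 0.155). Foxj3 was higher in MGv than in VPM (-0.62 ± 0.20 SE, adjusted p = 0.0584), a call lost without MGv replicate 1, MGv replicate 3, VPM replicate 2 or the trio, with no count filter, with only the nuclei compared and at a threshold of 0.05 (adjusted p 0.0235 to 0.198). Foxq1 was highest in VPM, at 1.47 to 3.62 CPM, against at most 0.763 CPM elsewhere. It had enough counts to be tested only through VPM, so its calls are likewise not independent evidence. Its call against dLG (-2.40 ± 0.69 SE, adjusted p = 0.0491) was lost with the replicate block and without dLG replicate 1, dLG replicate 4 or VPM replicate 1 (adjusted p 0.00286 to 0.163). Its call against MGv (2.58 ± 0.81 SE, adjusted p = 0.0503) was lost without MGv replicate 2, MGv replicate 3 or VPM replicate 1 (adjusted p 0.00599 to 0.126). The gene A530084C06Rik on the other strand shares 66.1% of the exonic bases of Foxq1, so its reads cannot be assigned with certainty.

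**Figure D4:**
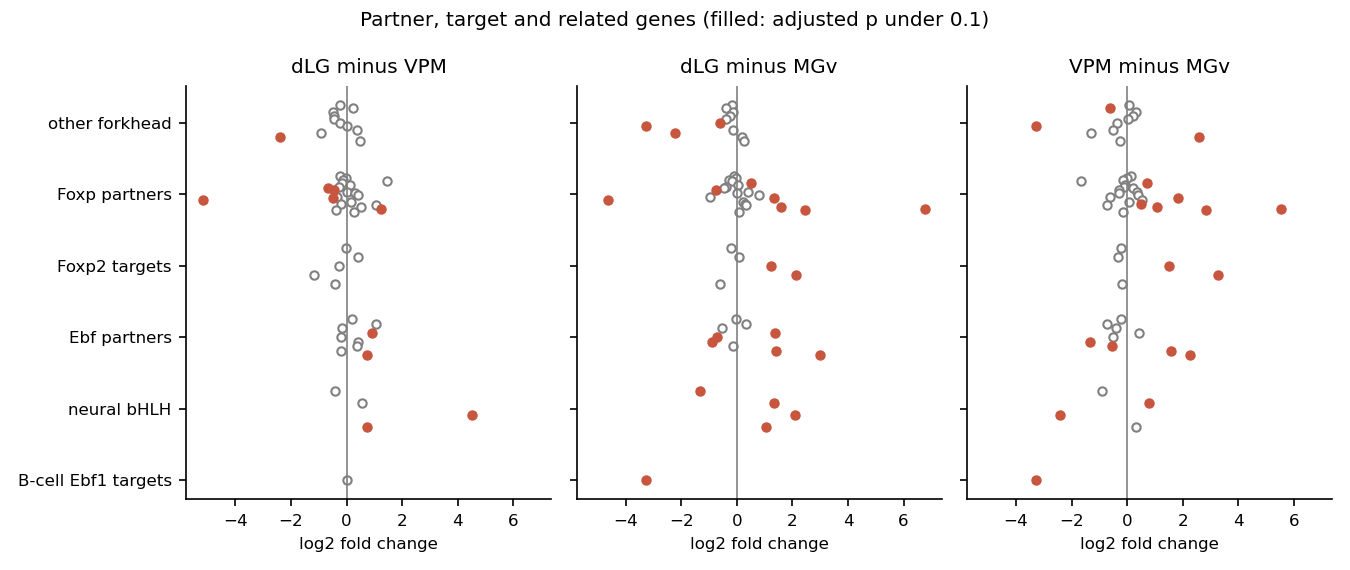
Log2 fold changes (horizontal axis) of the tested partner, target and related genes in each contrast, 1 row per list; filled points passed an adjusted p of 0.1 in the edgeR fit and open points did not. Sox5 at 6.77 and Nr2f2 at -4.64 lay farthest from 0 for dLG minus MGv.

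The Ebf partners are cofactors and antagonists of Ebf1. Of 9 tested, 2, 5 and 4 passed in the 3 contrasts, with list medians of 0.39, -0.03 and -0.40. The related zinc finger proteins Zfp521 and Zfp423, both of which bind Ebf1 and restrain it, were lowest in MGv. Zfp521 was at 52.2 to 59.1 CPM in dLG, 31.9 to 37.9 in VPM and 5.56 to 8.43 in MGv, with no overlap. Its dLG level exceeded that of VPM by 0.73 ± 0.14 (SE, adjusted p = 0.00613) and that of MGv by 2.98 ± 0.18 (SE, adjusted p = 5.17e-07) on the log2 scale, and VPM exceeded MGv by 2.25 ± 0.17 (SE, adjusted p = 2.76e-06). Zfp423 was at 67.4 to 86.9 CPM in dLG, 71.5 to 93.6 in VPM and 21.3 to 38.3 in MGv. Both dLG and VPM exceeded MGv (1.41 ± 0.20 and 1.59 ± 0.20 SE, adjusted p = 0.000352 and 0.000135), and dLG and VPM differed by -0.18 ± 0.17 (adjusted p = 0.631).

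The E proteins, dimer partners of bHLH factors and of the B-cell programme, moved in different directions. Tcf12 was higher in dLG than in VPM (0.93 ± 0.22 SE, adjusted p = 0.0182) and than in MGv (1.35 ± 0.25 SE, adjusted p = 0.00233), the same nucleus in which Ebf1 and Ebf2 were highest. Tcf4 was higher in MGv than in VPM (VPM minus MGv, -1.32 ± 0.26 SE, adjusted p = 0.00491). Its difference between dLG and MGv (-0.90 ± 0.26, adjusted p = 0.0408) was lost without MGv replicate 3 (adjusted p 0.00572 to 0.213 over the alternatives). Tet2, a DNA demethylase recruited by Ebf1, was lower in VPM than in MGv (-0.54 ± 0.19 SE, adjusted p = 0.0788), a call lost in 11 settings, among them the omission of the trio, of dLG replicates 1 or 4, MGv replicates 1 or 3 or VPM replicates 1, 2 or 3 (adjusted p 0.0451 to 0.386).

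Proneural and neuronal bHLH genes, which act before Ebf genes in neurogenesis, made a list of 7 with 4 tested. Between dLG and VPM 2 passed, both higher in dLG, and between dLG and MGv all 4 passed, 3 of them higher in dLG. The list medians were 0.64, 1.20 and -0.30 for dLG minus VPM, dLG minus MGv and VPM minus MGv. Neurog2 was at 4.20 to 12.6 CPM in dLG, 0.124 to 0.476 in VPM and 0.680 to 3.83 in MGv, so dLG did not overlap with either. It was 4.50 ± 0.59 (SE) above VPM on the log2 scale (adjusted p = 0.000292). Above MGv it was 2.08 ± 0.57 (adjusted p = 0.0281), a call lost without MGv replicate 2 or MGv replicate 3 (adjusted p 0.0001 to 0.111 over the alternatives). VPM was below MGv (-2.42 ± 0.62 SE, adjusted p = 0.0194), which was lost without MGv replicate 1 or without the trio (adjusted p 3.38e-05 to 0.276). Nhlh2 was higher in dLG than in VPM (0.74 ± 0.16 SE, adjusted p = 0.011) and than in MGv (1.05 ± 0.18 SE, adjusted p = 0.00132), and Neurod1 was higher in dLG than in MGv (1.34 ± 0.28 SE, adjusted p = 0.00621). Of 10 Ebf1 targets of B cells only Foxo1 had enough counts to be tested.

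**Figure D5:**
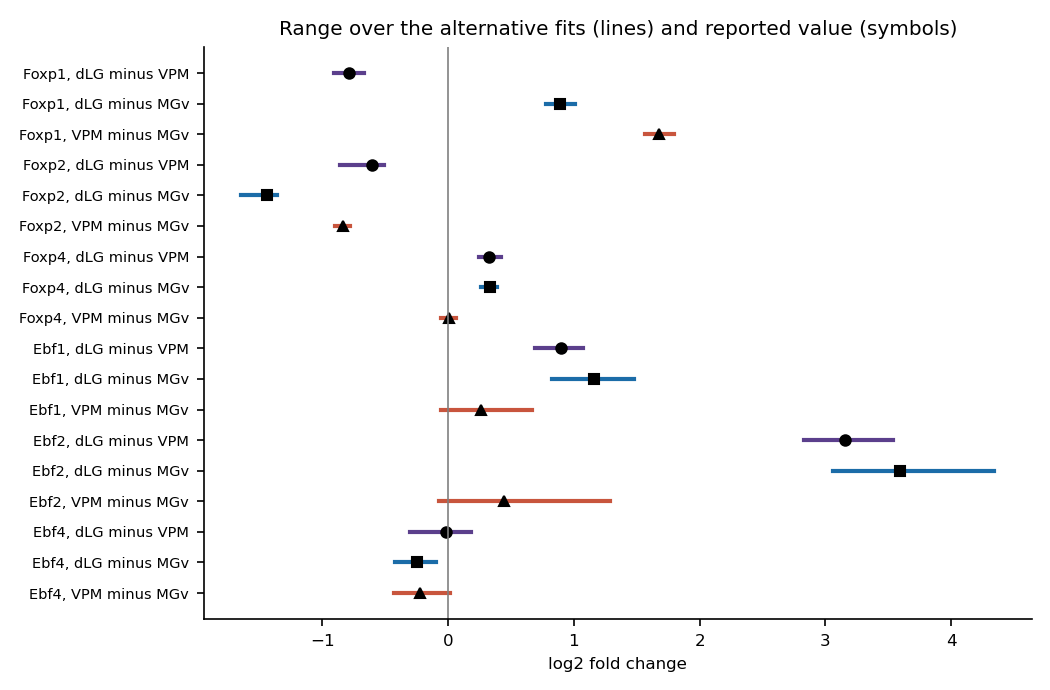
Range of each member's log2 fold change (horizontal axis) over the 20 alternative fits (lines) with the reported value (black symbols). The lines of Foxp1 and Foxp2 stay on 1 side of 0 in all contrasts, as do those of Ebf1 and Ebf2 where dLG is compared, and the lines that cross 0 belong to differences that did not pass.

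Over the 20 alternative fits no member that passed in a contrast changed its direction there. The differences of Foxp1 ranged from -0.91 to -0.67 (dLG minus VPM), from 0.78 to 1.01 (dLG minus MGv) and from 1.57 to 1.80 (VPM minus MGv). Those of Foxp2 ranged from -0.86 to -0.51, from -1.64 to -1.36 and from -0.90 to -0.78. For Ebf2 the ranges were 2.83 to 3.54 against VPM and 3.06 to 4.35 against MGv. The order of Ebf1, Ebf2, Ebf4 and Foxp4 between VPM and MGv was not fixed by these data, since each of those differences crossed 0 in at least 1 fit.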

How the data were processed

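RNA-seq was deposited as 1 table of raw read counts per library, for 54752 genes. To make these counts, the authors trimmed reads of 50 bases (Trim Galore 0.6.1, cutadapt 2.3), aligned them with STAR 2.7.0d to GRCm38 and counted them in genes of Ensembl release 95 with featureCounts (Subread 1.6.4), as the labels and methods state. Strand and multi-mapping settings are not given in the sources used here. The cDNA was amplified, and the floors cover counting error only. The SD and SE values include the spread between libraries. Symbols and positions came from GENCODE M21 (54723 identifiers matched).

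Genes were kept by filterByExpr (15907 of 33170 with a count), scaled by TMM and tested with edgeR 4.0.16 (R 4.3.3, quasi-likelihood, all 11 libraries in 1 model, 3 group means, no covariate, two-sided). P-values were adjusted by Benjamini-Hochberg over all genes, with a threshold of 0.1. The SE of a log2 fold change is its size over the square root of F. Log2 CPM used a prior count of 2. The fit was tested on simulated counts. Total counts ran from 10175653 to 23559130 per library.

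The members and gene lists were chosen with earlier results of these data known. Named genes are the 8 members, for each list and contrast up to 4 passing genes with the largest change, 6 fixed partners and targets (Zfp423, Zfp521, Ctbp1, Ctbp2, Cntnap2 and Srpx2), and for each member above 1 CPM the 5 most similar genes above 5 CPM. Alternatives were DESeq2 1.42.0, its size factors, total counts, no filter, only the nuclei compared, the replicate block, thinned counts, a covariate for or omission of the library trio, a threshold of 0.05 and each library left out. Some genes of the lists are not reported here.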

Additional observations from a re-analysis of the deposited data

Results flagged for a closer look

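Of 12 groups of 4 libraries tested by Dixon's criterion for a sample far from the others (6 members, dLG and VPM), 2 were flagged, where chance flags about 1 in 20. Foxp2 was at 372 CPM in dLG replicate 2, with the other dLG libraries between 223 and 241 CPM and a gap of 0.874 of the whole range. This library belongs to the trio with low Hspa8, and the Foxp2 difference between dLG and VPM without the trio was -0.86 in place of -0.61. Foxp4 was at 30.3 CPM in VPM replicate 4, with the other VPM libraries between 25.6 and 26.3 CPM and a gap of 0.850 of the range. That library is not in the trio. No cause was tested for either.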

How the results depend on the processing

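Counts of genes called moved by more than 1.5 times in dLG against VPM only: from 1704 to 2618 with the 8 libraries outside the trio, and to between 1093 and 2223 as single libraries were left out (1093 without VPM replicate 2, 1101 without VPM replicate 1); the cause was not tested. Leaving out single libraries gave 1886 to 3300 genes for dLG against MGv and 2024 to 3235 for VPM against MGv. The members called numbered 2 to 4, 3 to 4 and 2 in the 3 contrasts, and the related genes 7 to 14, 15 to 24 and 12 to 17. Ebf1 gained its call in dLG against VPM with DESeq2, no count filter, only the nuclei compared, the replicate block, the trio covariate, or without dLG replicate 2, MGv replicate 3 or VPM replicate 4. It lost its call against MGv at a threshold of 0.05. Deviations from the group means had a mean r of 0.02 over 10 pairs of libraries of the same number (from -0.20 to 0.48). The mean was -0.01 over 30 other pairs (from -0.31 to 0.27), so the highest single r was in a pair of the same number. As the means were close, the numbers were not taken as pairs in the main fit. With the replicate block, 1464, 2169 and 2695 genes were called in place of 1704, 2562 and 3016, with 4, 4 and 2 members. Of 48 calls of related genes, 18 were lost under at least 1 alternative, with 94 losses in all (9 at a threshold of 0.05 and 85 under the others), and no passing fold change of a member or related gene changed sign. Depth limits Foxp3, Ebf3 and, in VPM and MGv, Ebf2.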
